A study of Mus musculus with 9 samples.

Results

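The genes described here encode WNT ligands, Frizzled receptors, LRP co-receptors, LGR receptors, secreted antagonists and agonists, and a few intracellular and nuclear WNT proteins. They were chosen by symbol among the protein-coding genes of the deposited count table: the Wnt, Fzd, Sfrp, Dkk (with Dkkl1) and Rspo families, Lgr4, Lgr5 and Lgr6, and Lrp5, Lrp6, Axin2, Lef1, Tcf7, Nkd1, Nkd2 and Wif1. This gave 53 genes of 50813 in the table, of which 21502 were protein-coding. Of these members 19 were Wnt ligands, 10 Frizzled receptors, 5 Dkk genes, 4 Sfrp genes, 4 R-spondins and 3 Lgr receptors.

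The study compared RNA from Lewis lung carcinoma (LLC) cells, a mouse lung tumour line, grown in vitro, with and without the surface protein CD47. The cells carried luciferase and were grown in DMEM with serum. The CD47 knockouts were made by electroporating Cas9 protein with a guide RNA, and carry small insertions or deletions in the coding sequence of Cd47. The 9 libraries came from 3 lines with 3 independent biological replicates each: wild-type cells (WT), knockout clone E3 and knockout clone E5. WT was described as clonal and each knockout is 1 clone, so the loss of CD47 and the identity of a clone cannot be told apart in a comparison with WT.

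WNT proteins are lipid-modified ligands that leave the cell and bind Frizzled receptors. Together with LRP5 or LRP6, a Frizzled bound by a canonical ligand stops the destruction of beta-catenin, which then acts with TCF and LEF factors on genes such as Axin2. Other ligands, with WNT5A as the textbook case, act mainly through routes that do not need beta-catenin. DKK proteins block LRP5 and LRP6, SFRP proteins and WIF1 bind the ligands, and R-spondins act through LGR receptors to keep Frizzleds on the surface.

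The total counts of the WT libraries were 49621282, 47756318 and 47574047. Those of clone E3 were 48672040, 46747086 and 44257404, and those of clone E5 were 47436854, 47378308 and 55095219. Levels are given in CPM (counts per 1000000 counts of the library), scaled by edgeR's TMM factors. A gene with 3 counts or fewer in every library of a line was taken to be at the detection floor.

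Replicate 3 of clone E3 stood apart from the other replicates of its line. Its median absolute log2 gap to its line mates over all tested genes was 0.28, against 0.17 and 0.19 for the other E3 libraries and 0.05 to 0.10 in WT and clone E5. The gap went with transcript length. When genes were put into 4 equal bins by the length of the canonical transcript, this library lay at a median log2 gap of -0.49 from its line mates in the bin of longest transcripts, from 4749 bases up. In the bin of shortest transcripts, up to 1731 bases, it lay at 0.27. The other E3 libraries lay at 0.24 and 0.26 for the longest transcripts, and the WT and E5 libraries between -0.03 and 0.03. Several members and pathway genes with long transcripts were low in this library, Lrp6 among them, and many of the results below are also given without it. Its part in each result, beyond the values without it, was not tested.

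The lines were checked against markers of their tissue and of other cell types. The mesenchymal list (Vim, Fn1, Cdh2, Zeb1, Sparc) was the highest, with Vim its most abundant gene, and its summed level was 6738, 6268 and 6367 CPM in WT, 7433, 6805 and 7597 CPM in clone E3 and 7418, 8337 and 8753 CPM in clone E5. Of its 5 tested genes 2 were higher in clone E3 than in WT and 1 was higher in clone E5. Over all 14593 tested genes 15.7% were higher and 14.7% lower in clone E3, and 8.96% higher and 11.7% lower in clone E5. Counts for the other marker lists are to be read beside the same shares. By edgeR's test, Sparc rose in clone E3 (1.30, adjusted p 4.93e-05) and Vim in clone E5 (0.66, adjusted p 0.00335). Each of these 2 calls was kept in 16 of 16 alternatives. The rise of Vim in clone E3 (0.40, adjusted p 0.0301) was lost without WT replicate 1, 2 or 3 (0.39, 0.38 and 0.40, adjusted p 0.0832, 0.102 and 0.0814), in the fit of WT and E3 alone (0.41, adjusted p 0.0722) and with the replicate block (0.39, adjusted p 0.0586). Fn1 of the same list lay below WT in every knockout library, with values of -0.81 in clone E3 (adjusted p 0.0757) and -0.66 in clone E5 (adjusted p 0.171) that did not pass with all libraries. Fn1 passed in both clones without E3 replicate 3 (-0.50, adjusted p 0.0486, and -0.66, adjusted p 0.00736), and in clone E3 without E3 replicate 1 (-1.09, adjusted p 0.0422), by DESeq2 (-0.81, adjusted p 0.0287) and with no filter on low counts (-0.82, adjusted p 0.0117). In the fit of WT and E5 alone it passed in clone E5 (-0.66, adjusted p 0.00816). Over the alternatives the adjusted p of Fn1 ranged from 0.0117 to 0.205 in clone E3 and from 0.00736 to 0.424 in clone E5. Cdh2, at 0.25 in clone E5 (adjusted p 0.3), passed there in 2 of 16 alternatives (adjusted p from 0.018 to 0.598). Of the lung list, Sftpc, Sftpb, Nkx2-1 and Scgb1a1 were at 0 counts in all 9 libraries, as was Epcam of the epithelial list. The other gene of the lung list, Foxj1, had 1, 5 and 10 counts in WT. It had 3, 1 and 2 counts in clone E3 and 1, 2 and 1 in clone E5, and was not tested. The lung list summed to at most 0.211 CPM, the endothelial list to at most 0.253 CPM and the immune list to 2.35 to 3.51 CPM, with Cd68 its most abundant gene and Cd3e at 0. Cd68, the gene of these lists that was tested, was not called (adjusted p 0.333 in clone E3, 0.683 in clone E5 and 0.143 between the clones).

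Epithelial keratins and fibroblast genes differed between the lines. The epithelial list, with Krt18 its most abundant gene and Epcam at 0, summed to 459, 451 and 459 CPM in WT, 164, 127 and 199 CPM in clone E3 and 896, 958 and 933 CPM in clone E5. Its 3 tested genes were lower in clone E3, and 2 of them were higher in clone E5. The fall of Krt19 in clone E3 (-1.45, adjusted p 0.0182) was lost without WT replicate 1 (-1.43, adjusted p 0.0535), WT replicate 3 (-1.44, adjusted p 0.0536) or E3 replicate 1 (-1.14, adjusted p 0.0589). In clone E5 the Krt19 value of 0.87 (adjusted p 0.0715) passed without E3 replicate 3 (0.87, adjusted p 0.0448) and in the fit of WT and E5 alone (0.87, adjusted p 0.0287, range 0.0287 to 0.269). The fibroblast list (Col1a1, Col1a2, Pdgfra, Pdgfrb, Dcn, Thy1), with Pdgfra its most abundant gene and Thy1 at 0, summed to 63.8, 49.9 and 48.6 CPM in WT, 81.4, 60.6 and 47.7 CPM in clone E3 and 18.6, 17.8 and 21 CPM in clone E5. Of its 5 tested genes 4 were higher and 1 lower in clone E3 than in WT, and 3 were lower in clone E5. Dcn, a proteoglycan of the matrix, was at 30.1, 23.1 and 21.6 CPM in WT, 3.78, 1.46 and 3.32 CPM in clone E3 and 0.215, 0.455 and 0.37 CPM in clone E5, and fell in both (-3.13, adjusted p 6.68e-05, and -6.15, adjusted p 2.32e-06). Pdgfra rose in clone E3 (0.97, adjusted p 0.00431), and Pdgfrb rose there (2.07, adjusted p 6.91e-05) and fell in clone E5 (-2.07, adjusted p 0.000274). The rise of Col1a1 in clone E3 (0.99, adjusted p 0.0111) was lost without WT replicate 2 (0.94, adjusted p 0.0512), and that of Col1a2 (1.41, adjusted p 0.0148) without WT replicate 1 (1.28, adjusted p 0.0635) or 2 (1.27, adjusted p 0.0695). Pdgfra, at -0.55 in clone E5 (adjusted p 0.0765), passed there in 5 of 16 alternatives (adjusted p from 0.00173 to 0.251). The part of these marker genes in the WNT results was not tested.

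Cd47 (ENSMUSG00000055447.20, chr16:49620896-49735373 in GRCm39), the edited gene, was at 187, 179 and 182 CPM in WT, 47.4, 36.7 and 49.6 CPM in clone E3 and 15.5, 18.6 and 18.1 CPM in clone E5. The 3 lines did not overlap, and clone E5 held the least Cd47 RNA. Cd47 had a log2 fold change of -2.03 in clone E3 (SE 0.13, adjusted p 4.9e-06) and of -3.39 in clone E5 (SE 0.14, adjusted p 1.07e-07). These adjusted p-values, and those below where DESeq2 is not named, are from edgeR's quasi-likelihood test. They were adjusted by Benjamini-Hochberg over every gene tested. Ranges over the alternatives also take in the values of DESeq2. Tested directly, clone E5 was below clone E3 by a log2 difference of -1.36 (SE 0.13, adjusted p 2.76e-05).

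The low-count filter kept 21 of the 53 members, so counts of calls in the fit of all libraries are over these 21 and leave the others untested. A gene counts as called at an adjusted p under 0.05, and as a DEG when its absolute log2 fold change is also above 1. In clone E3, 8 members rose and 5 fell against WT and 9 were DEGs, where 15.7% of all 14593 tested genes rose, 14.7% fell and 9.82% were DEGs. In clone E5, 5 members rose and 7 fell and 10 were DEGs, where 8.96% of all tested genes rose, 11.7% fell and 8.21% were DEGs. Between the clones, 2 members were higher and 8 lower in E5 than in E3 and 7 were DEGs, where 14.7% of all tested genes were higher, 17.2% lower and 11% DEGs. Counts of calls in single families and lists below are to be read beside these shares of all tested genes. The members' median log2 fold change was 0.28 in clone E3, -0.12 in clone E5 and -0.16 between the clones, beside 0.01, -0.00 and -0.01 over all tested genes. Both knockout comparisons use the same WT libraries, so their values are set side by side and not counted as separate evidence. Without replicate 3 of clone E3 the filter kept 23 members, and the members called were 16 in clone E3, 16 in clone E5 and 12 between the clones, where 43.2%, 42% and 44.1% of all tested genes were called in either direction. In bulk RNA, fewer cells that express a gene and less RNA per cell cannot be told apart.

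**Figure D1:**
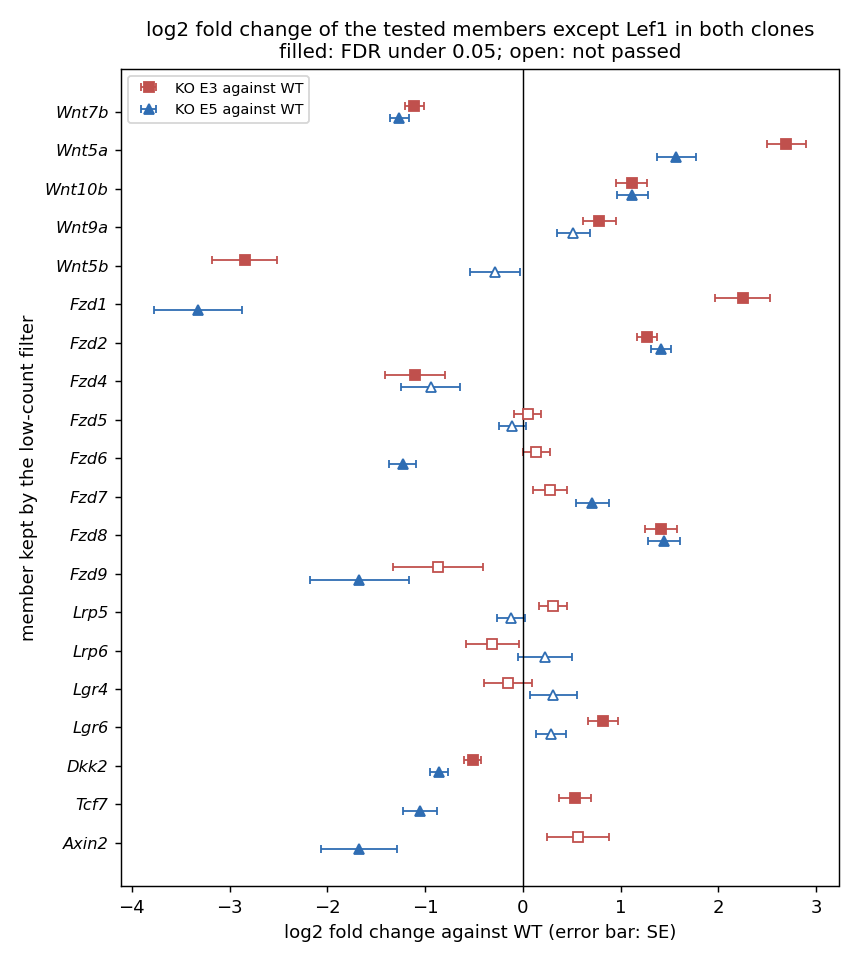
Log2 fold change against WT (x axis, error bar: SE) of 20 tested members (y axis) in clone E3 (squares) and clone E5 (triangles), filled where the adjusted p was under 0.05. Wnt7b lies at -1.11 and -1.26 and Fzd2 at 1.27 and 1.41, while Fzd1 lies at 2.25 in E3 and -3.32 in E5. The E5 value of Fzd1 rests on 3, 1 and 4 counts in that clone. Lef1 is left out because clone E3 was near the detection floor.

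Among the ligands, Wnt7b was by far the most abundant per transcript length in every library, and it fell in both clones, while Wnt5a and Wnt10b rose in both. Of the 5 tested ligands 3 rose and 2 fell in clone E3, beside 15.7% and 14.7% of all tested genes. In clone E5, 2 rose and 1 fell, beside 8.96% and 11.7%. Wnt7b (ENSMUSG00000022382.16, chr15:85419638-85466674), a canonical ligand known for its role in lung development, was at 143, 149 and 150 CPM in WT. It was at 69.8, 69.5 and 65.4 CPM in clone E3 and 55.1, 62.7 and 66.5 CPM in clone E5. Every knockout library lay below every WT library, and the clones overlapped. Wnt7b had a log2 fold change of -1.11 in clone E3 (SE 0.10, adjusted p 3.2e-05) and -1.26 in clone E5 (SE 0.10, adjusted p 9.12e-06). Between the clones the Wnt7b difference was -0.15 (SE 0.09) and did not pass the test (adjusted p 0.25).

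Wnt5a (ENSMUSG00000021994.16, chr14:28226707-28249405), the ligand best known for signalling without beta-catenin, was at 1.96, 2.21 and 2.55 CPM in WT. Clone E3 held 16.8, 16.1 and 10.7 CPM of Wnt5a, and clone E5 held 5.73, 7.03 and 7.19 CPM. The lines did not overlap, with clone E3 highest, clone E5 between and WT lowest, and the low E3 value was that of replicate 3. Wnt5a rose by 2.69 on the log2 scale in clone E3 (SE 0.20, adjusted p 1.49e-05) and by 1.57 in clone E5 (SE 0.20, adjusted p 0.000308). Tested directly, Wnt5a was lower in clone E5 than in clone E3 by a log2 difference of -1.13 (SE 0.18, adjusted p 0.00116). Without replicate 3 of clone E3, the Wnt5a value in that clone was 2.87 and the difference between the clones was -1.30.

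Wnt10b (ENSMUSG00000022996.16, chr15:98668593-98676031), a canonical ligand, was at 1.42, 2.04 and 1.86 CPM in WT, 3.98, 3.72 and 3.8 CPM in clone E3 and 4.01, 3.93 and 3.62 CPM in clone E5. All knockout libraries were above all WT libraries, and the clones overlapped. Wnt10b rose by 1.11 in clone E3 (SE 0.16, adjusted p 0.000624) and by 1.12 in clone E5 (SE 0.16, adjusted p 0.000707) on the log2 scale, and the clones differed by 0.01 (SE 0.15, adjusted p 0.981).

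Wnt9a (ENSMUSG00000000126.12, chr11:59197754-59224378), a ligand known from joint and liver development, was at 1.14, 1.24 and 1.08 CPM in WT, 1.94, 1.86 and 2.15 CPM in clone E3 and 1.66, 1.8 and 1.5 CPM in clone E5. The 3 lines did not overlap, with WT lowest. Wnt9a rose by 0.78 on the log2 scale in clone E3 (SE 0.17, adjusted p 0.0058). In clone E5 its log2 fold change of 0.52 (SE 0.17) missed the threshold (adjusted p 0.0544), and it passed at the same value without replicate 3 of clone E3 (adjusted p 0.0278) and in the fit of WT and E5 alone (adjusted p 0.0308; the adjusted p ranged from 0.0278 to 0.183 over the alternatives). Between the clones the Wnt9a difference was -0.27 (SE 0.16, adjusted p 0.244).

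Wnt5b (ENSMUSG00000030170.15, chr6:119409492-119521308), a close relative of Wnt5a, had 47, 39 and 26 counts in WT, 5, 4 and 6 counts in clone E3 and 27, 29 and 37 counts in clone E5. These were 0.941, 0.82 and 0.549 CPM, 0.1, 0.0845 and 0.132 CPM, and 0.582, 0.629 and 0.684 CPM. Clone E3 lay below both other lines, which overlapped each other. Wnt5b fell in clone E3 (log2 fold change -2.84, SE 0.33, adjusted p 0.000197), was not called in clone E5 (-0.28, SE 0.26, adjusted p 0.492) and was higher in E5 than in E3 (2.56, SE 0.34, adjusted p 0.000313). Without E3 replicate 3 these Wnt5b values were -3.03 in clone E3 and 2.75 between the clones. Wnt5b and Wnt5a thus lay on opposite sides of WT in clone E3. Exons of Wnt5b overlap those of Fbxl14 on the opposite strand by 1244 bases, and Fbxl14 had 29929 counts over all libraries against 220 for Wnt5b. The library kit keeps the strand of the RNA, but the counting tool, whether it used the strand, and the annotation release were not given in the sources used here, so the counts of genes that overlap others are uncertain.

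**Figure D2:**
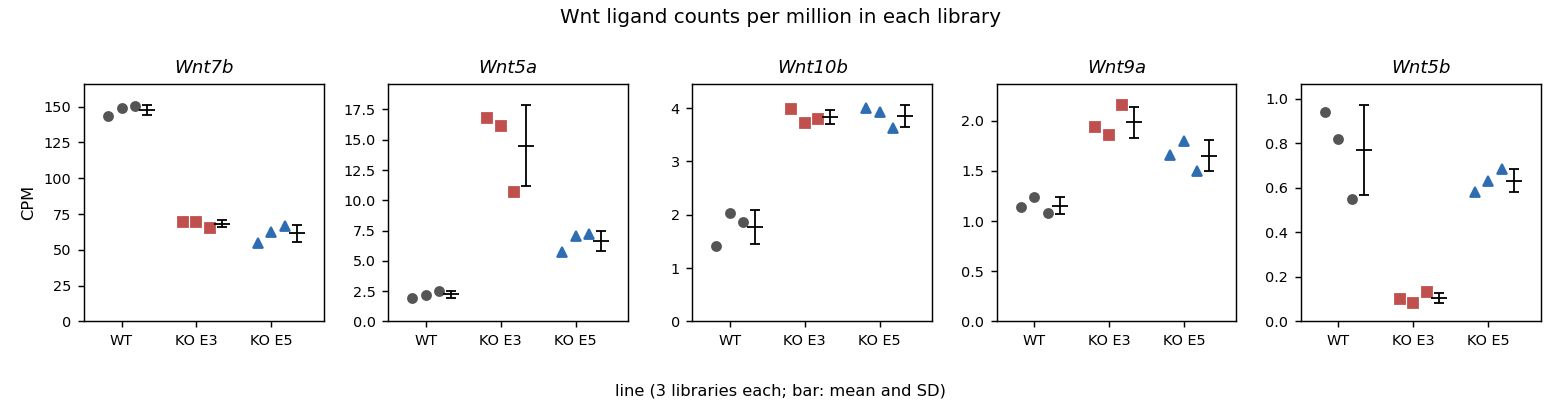
CPM (y axis, from 0) of Wnt7b, Wnt5a, Wnt10b, Wnt9a and Wnt5b in each of the 3 libraries of WT, KO E3 and KO E5 (points), with mean and SD (bars). Wnt7b fell from a mean of 147 CPM to 68.2 and 61.4 CPM, and Wnt5a lay at means of 2.24, 14.5 and 6.65 CPM.

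The other 14 Wnt ligands did not pass the low-count filter. Wnt1, Wnt3a, Wnt7a and Wnt9b were at 0 counts in all libraries. Wnt4, Wnt6, Wnt8a, Wnt8b and Wnt16 had at most 2 counts in any library. Wnt2 reached 7 counts, Wnt3 8, Wnt10a 5, Wnt11 9 and Wnt2b 14. Wnt10a had 4, 5 and 5 counts in WT, 0, 0 and 2 in clone E3 and 0 in each E5 library, and Wnt3 had 4, 1 and 4 counts in WT, 8, 4 and 5 in clone E3 and 0 in each E5 library. Both ligands were called in clone E5 against WT when no filter on low counts was used, and so were Wnt2, Wnt3 and Dkk1 between the clones. Wnt2b was called in clone E5 without E3 replicate 3.

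Some Wnt genes lie next to each other on the chromosome with no protein-coding gene between them, and the gaps given here are between the gene coordinates of the deposited table. Wnt6 and Wnt10a on chromosome 1 are 6.193 kb apart. Wnt10b lies 11.71 kb from Wnt1 on chromosome 15 and Wnt9a lies 16.18 kb from Wnt3a on chromosome 11, and in both pairs the neighbour had 0 counts in every library. Wnt3 and Wnt9b, also on chromosome 11, are 24.33 kb apart. In the GENCODE M39 annotation, exons of Wnt10b and Wnt1 overlap by 489 bases on opposite strands.

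Per transcript length, the ligand RNA of all lines was mostly Wnt7b. Summed over the 19 ligands, the level was 43.7 CPM per kb of canonical transcript in WT (SD 1.03, n = 3), 23.3 in clone E3 (SD 1.13) and 20.3 in clone E5 (SD 1.74). Wnt7b made up 96.4% of that sum in WT, 83.7% in clone E3 and 86.4% in clone E5 (means of 3 libraries). Wnt5a made up 0.709% in WT, 8.57% in clone E3 and 4.52% in clone E5. Wnt10b held 1.1%, 4.47% and 5.18% in the same order. Wnt9a held 0.753%, 2.44% and 2.33%. On the per-length scale the order after Wnt7b was Wnt10b, Wnt9a, Wnt5a and Wnt5b in WT, with the last 3 of these close together, and Wnt5a came next to Wnt7b in clone E3.

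Among the Frizzled receptors, Fzd2 and Fzd8 rose in both clones, Fzd1 moved in opposite directions, and Fzd6 fell in clone E5. Of the 8 tested Frizzleds 3 rose and 1 fell in clone E3, beside 15.7% and 14.7% of all tested genes. In clone E5, 3 rose and 3 fell, beside 8.96% and 11.7%. Tested directly between the clones, 2 were lower in E5 and 0 higher by edgeR, with 1 higher at an unadjusted p under 0.05 and 0 by DESeq2. Fzd2 (ENSMUSG00000050288.7, chr11:102495222-102498884), a receptor for canonical and non-canonical ligands, was at 4.69, 4.61 and 4.62 CPM in WT, 11.1, 10.5 and 11.9 CPM in clone E3 and 12.4, 12.6 and 12.1 CPM in clone E5. All knockout libraries lay above WT, and the E5 libraries lay just above those of E3. Fzd2 rose by 1.27 in clone E3 (SE 0.10, adjusted p 2.2e-05) and 1.41 in clone E5 (SE 0.10, adjusted p 6.78e-06) on the log2 scale, and the difference of 0.15 between the clones did not pass (SE 0.10, adjusted p 0.291).

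Fzd8 (ENSMUSG00000036904.7, on chromosome 18), a receptor of canonical ligands whose ligand-binding domain has long been used to study WNT binding, was at 1.1, 1.09 and 0.865 CPM in WT, 2.66, 2.89 and 2.62 CPM in clone E3 and 2.82, 2.71 and 2.81 CPM in clone E5. The knockout libraries lay above WT and overlapped each other. Fzd8 rose by 1.41 (SE 0.16, adjusted p 0.000168) in clone E3 and by 1.44 (SE 0.16, adjusted p 0.000137) in clone E5, with 0.03 (SE 0.15, adjusted p 0.897) between them.

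Fzd1 (ENSMUSG00000044674.7, chr5:4803839-4808035), a receptor close in sequence to Fzd2 and Fzd7, had 20, 22 and 40 counts in WT, 135, 127 and 124 in clone E3 and 3, 1 and 4 in clone E5. These were 0.401, 0.463 and 0.844 CPM in WT, 2.7, 2.68 and 2.73 CPM in clone E3 and 0.0646, 0.0217 and 0.074 CPM in clone E5. The lines did not overlap, and WT lay between the clones. Fzd1 rose by 2.25 in clone E3 (SE 0.28, adjusted p 0.000282), had a log2 fold change of -3.32 in clone E5 (SE 0.45, adjusted p 0.000519) and differed by -5.57 between the clones (SE 0.39, adjusted p 3.88e-06).

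Fzd6 (ENSMUSG00000022297.16, chr15:38869429-38901583), a receptor known for planar cell polarity, was at 21.4, 18.7 and 19.7 CPM in WT, 25.6, 22.3 and 17.9 CPM in clone E3 and 9.24, 7.85 and 8.36 CPM in clone E5. Clone E5 lay below the other lines, and WT fell within the range of clone E3. Fzd6 was not called in clone E3 (0.14, SE 0.14, adjusted p 0.481). Its value there was 0.26 without E3 replicate 3 (adjusted p 0.0506, range 0.0506 to 0.965 over the alternatives). With 1 library left out, Fzd6 in clone E3 lay as low as 0.0093, and its adjusted p was highest without E3 replicate 1. It fell in clone E5 (log2 fold change -1.23, SE 0.14, adjusted p 0.000158) and was lower in E5 than in E3 (-1.37, SE 0.14, adjusted p 5.43e-05).

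Fzd7 (ENSMUSG00000041075.9, chr1:59521583-59526114), a receptor often named in stem cells and tumours, was at 13.9, 10.1 and 12.1 CPM in WT, 17.8, 13.8 and 12 CPM in clone E3 and 17, 20.4 and 21.4 CPM in clone E5. Clone E5 lay above WT, and clone E3 overlapped both. Fzd7 rose by 0.71 on the log2 scale in clone E5 (SE 0.17, adjusted p 0.0143). That call was lost without WT replicate 2 (0.59, adjusted p 0.074), WT replicate 3 (0.71, adjusted p 0.0545), E5 replicate 2 (0.68, adjusted p 0.059) or E5 replicate 3 (0.64, adjusted p 0.0549), and the adjusted p ranged from 0.000779 to 0.074 over the alternatives. In clone E3 the Fzd7 value of 0.28 (SE 0.17, adjusted p 0.248) passed without E3 replicate 3 (0.39, adjusted p 0.0495, range 0.0495 to 0.661). With 1 library left out it lay as low as 0.11, and its adjusted p was highest without E3 replicate 1. The clone difference of 0.43 (SE 0.17, adjusted p 0.0773) passed without E3 replicate 1 (0.60, adjusted p 0.0252, range 0.0252 to 0.213).

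Fzd4 (ENSMUSG00000049791.5, chr7:89053563-89062342), the receptor for the non-WNT ligand Norrin as well as for WNTs, was at 12.4, 13.7 and 13.7 CPM in WT, 6.88, 7.8 and 3.78 CPM in clone E3 and 3.96, 7.16 and 9.5 CPM in clone E5. All knockout libraries lay below WT, with a wide spread within each clone. Fzd4 fell in clone E3 (log2 fold change -1.11, SE 0.31, adjusted p 0.021), and the call was lost without WT replicate 2 (-1.08, adjusted p 0.0611) or WT replicate 3 (-1.09, adjusted p 0.0605; range 0.00117 to 0.0611 over the alternatives). Without E3 replicate 3, the lowest library of its line, the Fzd4 value in that clone was -0.86 (adjusted p 0.0147), below the size of a DEG. In clone E5 the Fzd4 value of -0.95 (SE 0.31) just missed the threshold (adjusted p 0.0525). It passed without E3 replicate 2 (-0.95, adjusted p 0.0462), without E3 replicate 3 (-0.94, adjusted p 0.00465), without E5 replicate 3 (-1.25, adjusted p 0.029) and, with all libraries, by DESeq2 (-0.95, adjusted p 0.0126), under upper-quartile scaling (-0.96, adjusted p 0.044) and with no filter on low counts (-0.96, adjusted p 0.00646). The fit of WT and E5 alone also called it (-0.94, adjusted p 0.0055), with a range of 0.00465 to 0.148.

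Fzd5, a receptor of canonical ligands, was at 21.4 to 31.2 CPM over all libraries, was not called in any comparison, and differed between the clones at -0.29 (adjusted p 0.0213, range 0.0213 to 0.854 over the alternatives) when E3 replicate 3 was left out. Fzd9 had 20, 12 and 13 counts in WT, 8, 3 and 13 in clone E3 and 6, 3 and 5 in clone E5. The E5 libraries lay below WT, and clone E3 overlapped both. Fzd9 was a DEG in clone E5 (log2 fold change -1.67, SE 0.51, adjusted p 0.0408), at few counts. The call was lost without WT replicate 1, 2 or 3 (-1.44, -1.80 and -1.75, adjusted p 0.146, 0.0761 and 0.0824), E5 replicate 1, 2 or 3 (-1.93, -1.48 and -1.65, adjusted p 0.0749, 0.143 and 0.11) or E3 replicate 1 (-1.67, adjusted p 0.0562), within a range of 0.00672 to 0.146. In clone E3 the Fzd9 value of -0.87 (SE 0.46, adjusted p 0.184) passed without E3 replicate 3 (-1.44, adjusted p 0.034, range 0.034 to 0.436). Fzd3 had at most 6 counts in any library and Fzd10 had 0.

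**Figure D3:**
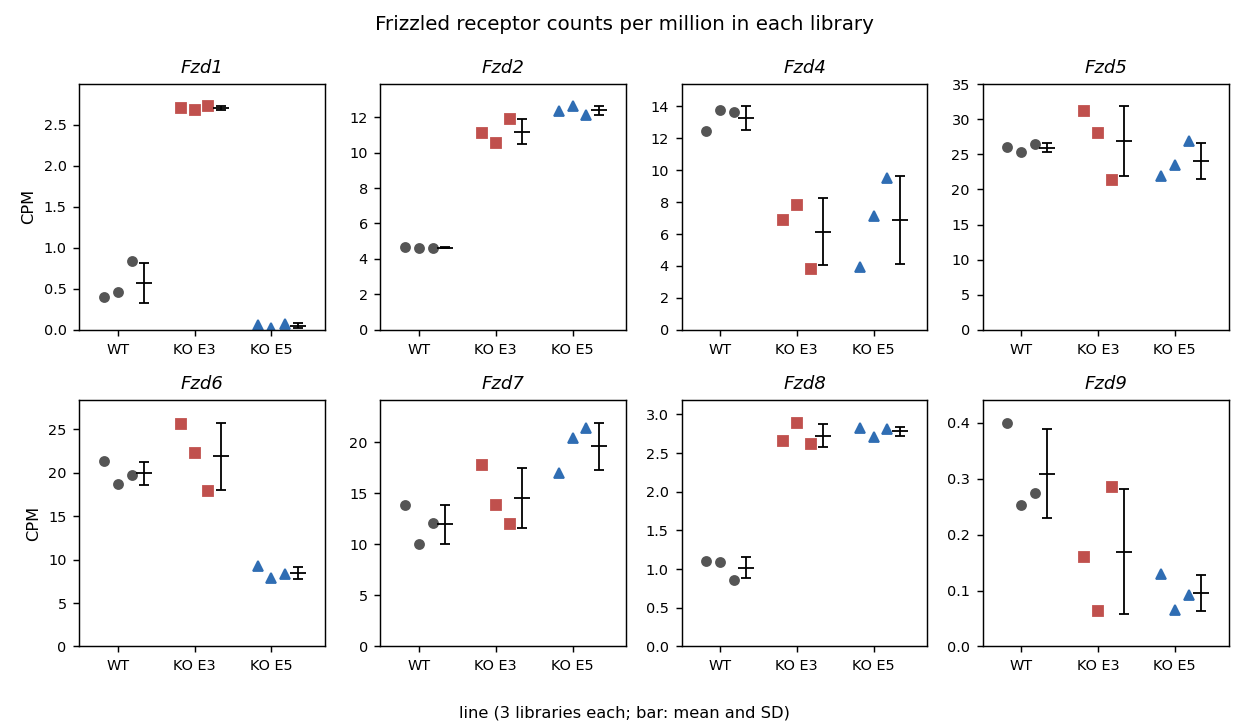
CPM (y axis, from 0) of 8 Frizzled receptors in each library of WT, KO E3 and KO E5 (points), with mean and SD (bars). Fzd2 lay at means of 4.64, 11.2 and 12.4 CPM, and Fzd1 at 0.569, 2.7 and 0.0534 CPM.

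Per transcript length the summed Frizzled level differed less between the lines than its make-up. The sum over 10 receptors was 16.1 CPM per kb in WT (SD 0.95, n = 3), 19 in clone E3 (SD 2.66) and 17 in clone E5 (SD 1.38), and the libraries of the lines overlapped. By canonical length, Fzd6 was the largest share in WT at 28.6%, near Fzd7 at 25.1% and Fzd5 at 23.3%. In clone E3 Fzd6 held 26.6% and Fzd7 25.7%. In clone E5 Fzd7 held 38.9% and Fzd6 11.6%. The share of Fzd2 was 7.89% in WT, 16.4% in clone E3 and 20% in clone E5. For Fzd4 the shares were 12.3%, 4.76% and 5.92%. The order of these shares depends on the length used. Fzd7 has 2959 bases in its canonical transcript and 5868 over all exons, Fzd6 4326 and 6859, and Fzd5 6939 in both. In CPM not divided by length, the WT means were 26 for Fzd5, 19.9 for Fzd6 and 12 for Fzd7. Shares by the length of all exons were not computed.

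**Figure D4:**
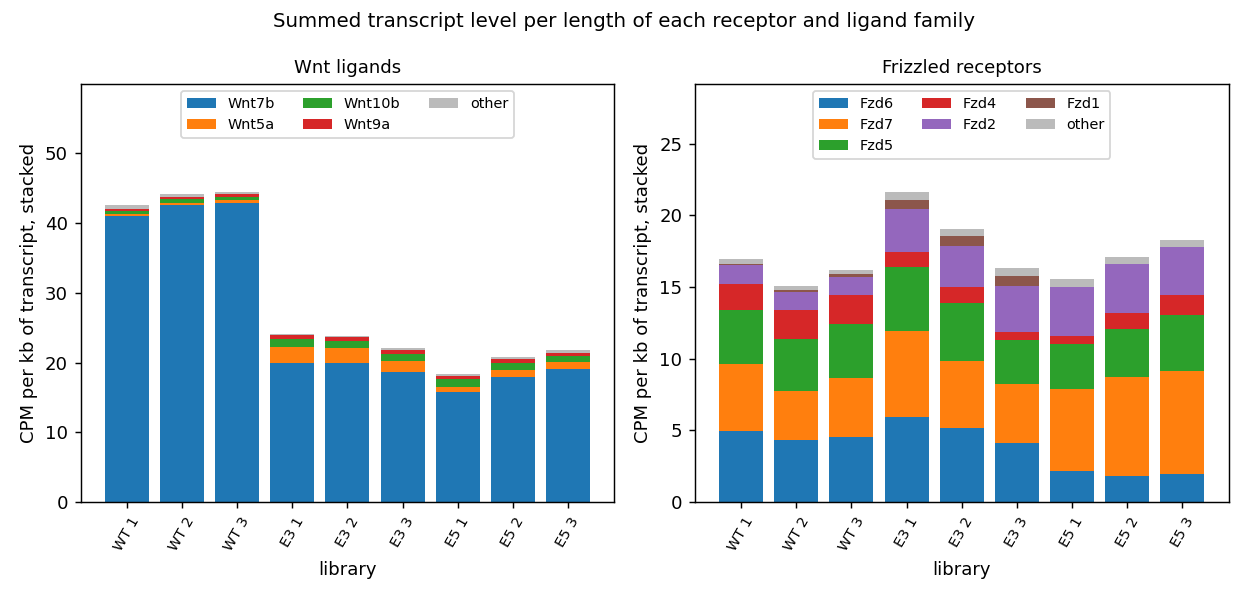
Stacked level per transcript length (y axis, CPM per kb of canonical transcript, from 0) of the Wnt ligands (left) and Frizzled receptors (right) in each library (x axis). The ligand sums averaged 43.7 in WT, 23.3 in E3 and 20.3 in E5, mostly Wnt7b, and the Frizzled sums averaged 16.1, 19 and 17.

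Of the co-receptors, Lrp5 and Lrp6 were abundant in all lines and neither was called against WT. Of the R-spondin receptors, Lgr6 rose in clone E3. For Lrp5 and Lrp6 in both knockout comparisons with all libraries, 0 were called by edgeR, 0 passed at an unadjusted p under 0.05 and 0 were called by DESeq2. Lrp5 (ENSMUSG00000024913.17, chr19:3634828-3736564), the co-receptor of canonical signalling also known from bone mass, was at 119, 118 and 133 CPM in WT, 181, 159 and 118 CPM in clone E3 and 113, 118 and 108 CPM in clone E5. Replicate 3 of clone E3 lay with the other lines while its line mates lay above them. Lrp5 had a log2 fold change of 0.31 in clone E3 (SE 0.14, adjusted p 0.128). It passed at 0.47 without replicate 3 of that clone (adjusted p 0.000488) and at 0.38 with all libraries under upper-quartile scaling (adjusted p 0.042). With 1 library left out the value in clone E3 lay as low as 0.17. The adjusted p ranged from 0.000488 to 0.39 over the alternatives, and was highest without E3 replicate 1. In clone E5 the Lrp5 value was -0.12 (SE 0.14, adjusted p 0.615).

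Between the clones Lrp5 was lower in E5 by a log2 difference of -0.43 (SE 0.14, adjusted p 0.0419), although E3 replicate 3 lay within the range of clone E5. That Lrp5 call was lost when WT replicate 1, 2 or 3 was left out (-0.43 each, adjusted p 0.0657, 0.0677 and 0.063), E3 replicate 1 or 2 (-0.29 and -0.40, adjusted p 0.138 and 0.0837), or E5 replicate 1, 2 or 3 (-0.43, -0.46 and -0.40, adjusted p 0.103, 0.0927 and 0.131). The fit of the clones alone (-0.43, adjusted p 0.0991) and the replicate block (-0.42, adjusted p 0.0736) lost it too. It was kept at -0.58 without E3 replicate 3 (adjusted p 9.37e-05), the low end of a range that reached 0.138.

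Lrp6 (ENSMUSG00000030201.16, chr6:134423439-134543928), the other co-receptor of canonical signalling, was at 110, 116 and 114 CPM in WT, 105, 123 and 45.4 CPM in clone E3 and 126, 126 and 144 CPM in clone E5. The value of E3 replicate 3 lay far below all others, and the canonical transcript of Lrp6 has 9704 bases. Lrp6 had a log2 fold change of -0.31 in clone E3 (SE 0.28, adjusted p 0.429), which was 0.01 without that library. In clone E5 it was 0.23 (SE 0.28, adjusted p 0.623), and the same value passed without E3 replicate 3 (adjusted p 0.0251) and in the fit of WT and E5 alone (adjusted p 0.00981, range 0.00981 to 0.796). Between the clones the Lrp6 difference of 0.54 (SE 0.28, adjusted p 0.164) passed at 0.22 without E3 replicate 3 (adjusted p 0.0471) and at 0.81 without E3 replicate 2 (adjusted p 0.0469), in a range of 0.0469 to 0.328.

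Lgr6 (ENSMUSG00000042793.14, chr1:134911039-135033014), a receptor for R-spondins, was at 3.87, 3.6 and 4.54 CPM in WT, 7.9, 6.13 and 7.1 CPM in clone E3 and 4.96, 5.42 and 4.27 CPM in clone E5. Clone E3 lay above the other lines, which overlapped each other. Lgr6 rose by 0.82 in clone E3 (SE 0.15, adjusted p 0.00289) and was not called in clone E5 (0.29, SE 0.16, adjusted p 0.229). The clones differed by -0.53 (SE 0.15, adjusted p 0.0231), and that call was lost without E3 replicate 1 (-0.44, adjusted p 0.0712), E5 replicate 1 (-0.54, adjusted p 0.0574) or E5 replicate 3 (-0.44, adjusted p 0.0926), in the fit of the clones alone (-0.53, adjusted p 0.0542) and with the replicate block (-0.52, adjusted p 0.0514), in a range of 0.00654 to 0.0926. Lgr4, the other R-spondin receptor above 1 CPM, ranged from 2.44 CPM in E3 replicate 3 to 6.01 CPM and was not called, though it passed between the clones without E3 replicate 2 (0.76, adjusted p 0.0249, range 0.0249 to 0.363). Lgr5 had at most 2 counts in any library. Of the R-spondins, Rspo2 had at most 6 counts, Rspo3 1, and Rspo1 and Rspo4 had 0.

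Of the antagonists of the list Dkk2 alone passed the low-count filter, and it fell in both clones. Dkk2 (ENSMUSG00000028031.7, chr3:131791053-131886065), a secreted ligand of LRP5 and LRP6 that can block or, in some settings, aid WNT signalling, was at 199, 186 and 202 CPM in WT. It was at 145, 132 and 134 CPM in clone E3 and 113, 110 and 101 CPM in clone E5. The lines did not overlap, with WT highest and clone E5 lowest. Dkk2 had a log2 fold change of -0.51 in clone E3 (SE 0.09, adjusted p 0.00187) and -0.86 in clone E5 (SE 0.09, adjusted p 9.45e-05). Tested directly, Dkk2 was lower in E5 than in E3 (-0.34, SE 0.09, adjusted p 0.0153), and that call was lost without E5 replicate 2 (-0.35, adjusted p 0.0559) or E5 replicate 3 (-0.29, adjusted p 0.0716) and in the fit of the clones alone (-0.34, adjusted p 0.063), in a range of 0.001 to 0.0716.

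On the per-length scale Dkk2 stood at a level of 52.6 CPM per kb in WT, above Wnt7b at 42.2 and Lrp5 at 23.8. In clone E3 these levels were 36.8 for Dkk2, 29.6 for Lrp5 and 19.5 for Wnt7b, and in clone E5 they were 29.1, 21.9 and 17.6. The other secreted antagonists had few counts or none: Dkk1 had at most 7 counts in a library, Dkk3 3, Dkkl1 2 and Sfrp4 18. Dkk4, Sfrp1, Sfrp2, Sfrp5 and Wif1 were at 0 in all libraries. Frzb, a secreted Frizzled-related protein outside the Sfrp symbols, was detected and is given with the pathway lists.

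Of the intracellular and nuclear members, Tcf7, Axin2 and Lef1 were tested, and they separated the clones. Tcf7 (ENSMUSG00000000782.17, chr11:52143198-52174158), a TCF factor that binds DNA with beta-catenin, was at 2.9, 2.71 and 2.2 CPM in WT, 4.16, 3.78 and 3.36 CPM in clone E3 and 1.34, 1.19 and 1.24 CPM in clone E5. The lines did not overlap, with clone E3 above WT and clone E5 below it. Tcf7 had a log2 fold change of -1.05 in clone E5 (SE 0.17, adjusted p 0.0016) and differed by -1.58 between the clones (SE 0.17, adjusted p 7.34e-05). It rose by 0.53 in clone E3 (SE 0.16, adjusted p 0.0288), and that call was lost without WT replicate 2 (0.56, adjusted p 0.0805), WT replicate 3 (0.42, adjusted p 0.126), E3 replicate 1 (0.45, adjusted p 0.086) or E3 replicate 2 (0.53, adjusted p 0.0507), with no filter on low counts (0.52, adjusted p 0.0604) and in the fit of WT and E3 alone (0.54, adjusted p 0.0598), in a range of 0.0102 to 0.126.

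Axin2 (ENSMUSG00000000142.16, chr11:108811175-108841609), a scaffold of the destruction complex and a widely used target gene of beta-catenin, had 24, 14 and 23 counts in WT, 25, 39 and 25 in clone E3 and 4, 8 and 7 in clone E5. These were 0.481, 0.294 and 0.485 CPM, 0.5, 0.824 and 0.55 CPM, and 0.0862, 0.174 and 0.129 CPM. Clone E5 lay below the other lines, and clone E3 just above WT. Axin2 was not called in clone E3 (0.57, SE 0.32, adjusted p 0.205). It fell in clone E5 (log2 fold change -1.68, SE 0.39, adjusted p 0.0123), a call that was lost without WT replicate 1 (-1.57, adjusted p 0.0501) or E5 replicate 1 (-1.47, adjusted p 0.0564), in a range of 0.00425 to 0.0564. Between the clones Axin2 differed by -2.24 (SE 0.37, adjusted p 0.00133).

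Lef1 (ENSMUSG00000027985.15, chr3:130904120-131018005), a nuclear partner of beta-catenin like Tcf7, had 13, 17 and 20 counts in WT, 0, 2 and 0 in clone E3 and 12, 17 and 13 in clone E5. WT and clone E5 overlapped, and clone E3 was at or near 0. With 2 counts summed over clone E3 and 50 over WT, the Lef1 level in WT was 24.7 times that in clone E3, with a 95% counting interval of 6.48 to 209. The ratio of clone E3 to clone E5, with 42 counts in E5, was 0.0489, with an interval of 0.00573 to 0.188. Lef1 passed edgeR's test in clone E3 (adjusted p 0.00101) and between the clones (adjusted p 0.00153), and it was not called in clone E5 (-0.26, SE 0.40, adjusted p 0.699). Replicate 2 holds both counts of clone E3, and without it the fitted Lef1 value went from -4.39 to -7.08 in clone E3 (adjusted p 0.00115, range 7.41e-05 to 0.00543) and from 4.13 to 6.81 between the clones (adjusted p 0.00134, range 0.000199 to 0.00745). Tcf7 and Lef1, both partners of beta-catenin, thus differed between the clones in opposite directions. Of the Naked genes, which bind Dishevelled, Nkd1 had at most 1 count and Nkd2 at most 12.

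**Figure D5:**
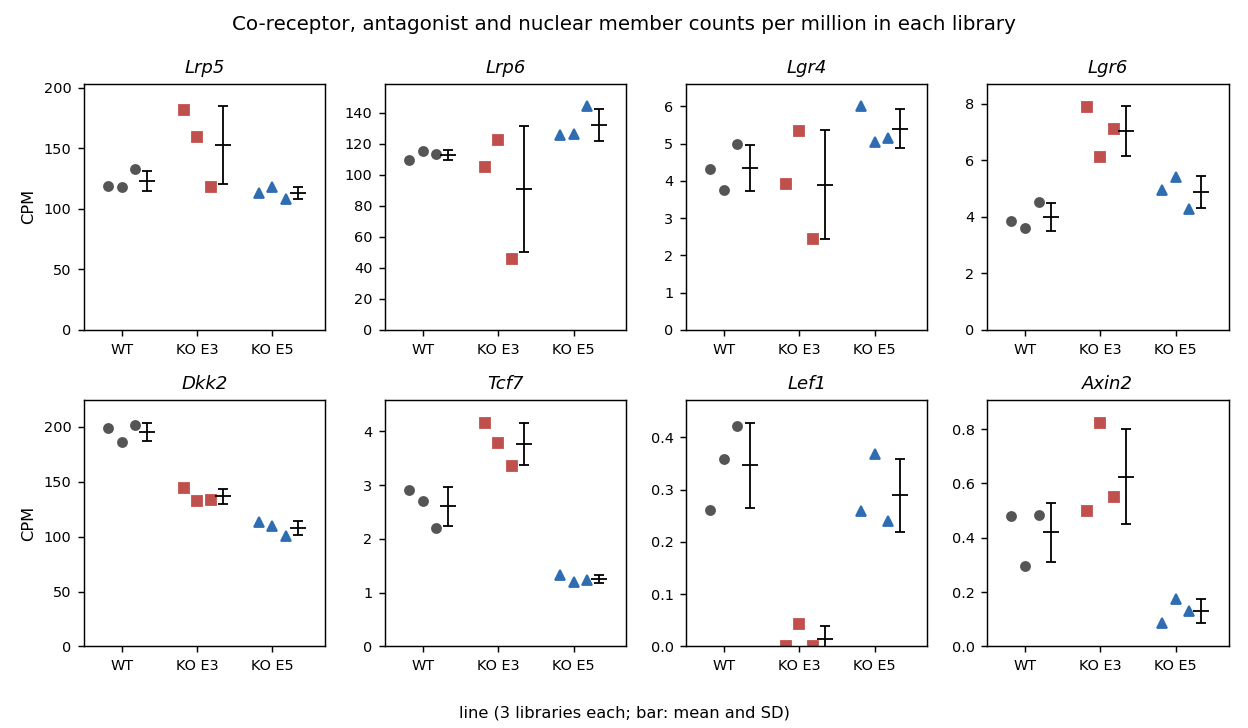
CPM (y axis, from 0) of Lrp5, Lrp6, Lgr4, Lgr6, Dkk2, Tcf7, Lef1 and Axin2 in each library of WT, KO E3 and KO E5 (points), with mean and SD (bars). Lrp6 lay at 45.4 CPM in replicate 3 of E3 and at 105 CPM or more in the other libraries, and Dkk2 fell from a mean of 195 CPM to 137 and 108 CPM.

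The promoters of the members were searched for the core motif of TCF and LEF factors, spelled CTTTGAT or CTTTGAA, on both strands (ATCAAAG or TTCAAAG on the other strand). The windows were the 250 bases before the start of the canonical transcript in GENCODE M39 on GRCm39. Of 21770 windows of protein-coding genes, 1642 held a match (7.54%). Of the 53 members 5 held a match (9.43%), and of the 21 tested members 2 did (9.52%). These were Axin2, with CTTTGAA on its own strand 22 bases before the start, and Lrp6, with CTTTGAT on its own strand 106 bases before the start. The untested members with a match were Dkk4, Nkd1 and Wnt8a. A match is a description, not a site or a cause, and a window with no match says only that these letters are not in it.

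A 30-base piece of the Axin2 window and the window of Lrp6 are shown because they hold the matches, and that of Wnt5a because this member rose in both clones and its window holds none. Capitals mark the motif, and each sequence is written 5′ to 3′ on the strand of its gene. The Axin2 piece is chr11:108811605-108811634 on the plus strand, which lies inside the gene range of the deposited table because the canonical transcript starts downstream of that range's start. Lrp6 is chr6:134544213-134544462 on the minus strand. Wnt5a is chr14:28226245-28226494 on the plus strand.
Axin2: tcggctcgcgcCTTTGAAgtgcacagttaa
Lrp6: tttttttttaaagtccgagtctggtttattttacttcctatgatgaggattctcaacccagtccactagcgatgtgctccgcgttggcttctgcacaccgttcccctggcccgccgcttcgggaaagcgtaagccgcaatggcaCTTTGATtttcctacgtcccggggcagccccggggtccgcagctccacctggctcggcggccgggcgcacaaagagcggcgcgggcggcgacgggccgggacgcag
Wnt5a: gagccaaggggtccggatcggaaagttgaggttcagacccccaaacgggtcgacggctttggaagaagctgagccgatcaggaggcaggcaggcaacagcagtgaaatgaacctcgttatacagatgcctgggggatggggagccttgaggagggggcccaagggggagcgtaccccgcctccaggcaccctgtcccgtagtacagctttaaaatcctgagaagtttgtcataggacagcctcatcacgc
The GC content was 61.6% in the Lrp6 window and 58.4% in that of Wnt5a. The Lrp6 window held 26 CpG dinucleotides and that of Wnt5a 11.

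The pathway genes outside the members were described by lists written from general knowledge, with earlier results of these data known. Their shares of calls are therefore a description and not a test. The table held 71 such genes, of which 51 were tested, and against WT 12 rose and 5 fell in clone E3 and 7 rose and 7 fell in clone E5. These were 23.5% and 9.8% in clone E3, beside 15.7% and 14.7% of all tested genes, and 13.7% in each direction in clone E5, beside 8.96% and 11.7%. Their median log2 fold change was 0.01 in clone E3, 0.06 in clone E5 and -0.07 between the clones, and 8 were higher and 13 lower in E5 than in E3 (15.7% and 25.5%, beside 14.7% and 17.2% of all tested genes). Without E3 replicate 3, 17 rose and 8 fell in clone E3, 19 rose and 16 fell in clone E5, and 10 were higher and 17 lower between the clones, in a fit that called 43.2%, 42% and 44.1% of all tested genes. Of the pathway calls with all libraries, every alternative that tested the gene kept 10 of 17 in clone E3, 10 of 14 in clone E5 and 9 of 21 between the clones.

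For WNT secretion and release (3 tested genes), 0 were called in clone E3 by edgeR, 0 passed at an unadjusted p under 0.05 and 0 were called by DESeq2, while in clone E5 1 rose and 1 fell. Notum, a secreted enzyme that strips the lipid from WNT ligands, was at 2.56, 3.68 and 3.63 CPM in WT, 3.7, 4.01 and 4.11 CPM in clone E3 and 14.9, 13.7 and 9.82 CPM in clone E5. Clone E5 lay above the other lines. Notum rose by 1.96 in clone E5 (adjusted p 5.58e-05), was not called in clone E3 (0.26, adjusted p 0.341) and differed by 1.70 between the clones (adjusted p 9.68e-05). Wls, the carrier that brings WNT ligands to the cell surface, fell in clone E5 (-0.39, adjusted p 0.024), a call lost without WT replicate 1 (-0.34, adjusted p 0.105), WT replicate 2 (-0.40, adjusted p 0.0784), E5 replicate 1 (-0.35, adjusted p 0.101) or E5 replicate 2 (-0.37, adjusted p 0.104) and with the replicate block (-0.39, adjusted p 0.0591), in a range of 0.00147 to 0.105.

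Of the genes for Frizzled turnover and Kremen receptors 2 were tested. Kremen1, a receptor for DKK proteins, rose by 0.60 in clone E5 (adjusted p 0.00582) and by 0.45 in clone E3 (adjusted p 0.0183), the latter lost without WT replicate 1 (0.41, adjusted p 0.0775), WT replicate 2 (0.44, adjusted p 0.0738), E3 replicate 1 (0.42, adjusted p 0.0525) or E3 replicate 2 (0.35, adjusted p 0.054), in a range of 0.000175 to 0.0775. Znrf3, a ligase that removes Frizzleds from the surface, was at 24.7, 28.9 and 13.9 CPM in clone E3 and 38.7, 40.8 and 43.4 CPM in clone E5, and was higher in E5 than in E3 (0.87, adjusted p 0.0108; 0.62 without E3 replicate 3, adjusted p 0.000143, range 0.000143 to 0.0407). Against WT the Znrf3 value in E3 was -0.61 (adjusted p 0.0524), and it passed without E3 replicate 2 (-0.83, adjusted p 0.0134) or E3 replicate 3 (-0.36, adjusted p 0.00621), by DESeq2 (-0.61, adjusted p 0.0258) and with no filter on low counts (-0.62, adjusted p 0.0157), in a range of 0.00621 to 0.136. In clone E5 the Znrf3 value of 0.26 (adjusted p 0.435) passed without E3 replicate 3 (0.27, adjusted p 0.0156) and in the fit of WT and E5 alone (0.26, adjusted p 0.00603, range 0.00603 to 0.659).

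Among 4 tested alternative WNT receptors 2 rose in clone E3 and 1 rose in clone E5. Ptk7, a co-receptor of planar cell polarity, was at 68.5, 71 and 79 CPM in WT, 137, 129 and 118 CPM in clone E3 and 97.3, 110 and 104 CPM in clone E5. The lines did not overlap, and Ptk7 rose by 0.81 in clone E3 (adjusted p 0.000262) and by 0.51 in clone E5 (adjusted p 0.00487). Ryk, a receptor that binds WNT5A and other ligands, was lower in E5 than in E3 (-0.53, adjusted p 0.00198). Against WT its value in clone E5 was -0.23 (adjusted p 0.12), which passed at -0.22 without E3 replicate 3 (adjusted p 0.00768) and in the fit of WT and E5 alone (adjusted p 0.00539, range 0.00539 to 0.312). In the same 2 fits Sdc4 passed as lower and Ror2 as higher in clone E5. The rise of Ryk in clone E3 (0.30, adjusted p 0.0337) was lost without WT replicate 1, 2 or 3 (0.27, 0.30 and 0.33, adjusted p 0.128, 0.112 and 0.0734) or E5 replicate 1, 2 or 3 (0.30 each, adjusted p 0.0544, 0.0635 and 0.0534), in a range of 0.00929 to 0.128. It was also lost with no filter on low counts (0.29, adjusted p 0.111), in the fit of WT and E3 alone (0.31, adjusted p 0.087) and with the replicate block (0.30, adjusted p 0.0689).

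Of 13 tested Dishevelled and destruction complex genes 2 rose and 1 fell in clone E3, and 0 were called in clone E5 by edgeR, where 2 higher and 2 lower genes passed at an unadjusted p under 0.05 and DESeq2 called 1 lower gene. The fit of WT and E5 alone called 5 higher and 3 lower genes of this list in clone E5, and the same 8 genes passed there without E3 replicate 3. Those fits called 46.8% and 42% of all tested genes in clone E5. Ctnnb1, which encodes beta-catenin, was at 589, 577 and 589 CPM in WT, 741, 726 and 684 CPM in clone E3 and 574, 584 and 535 CPM in clone E5. Clone E3 lay above the other lines. Ctnnb1 rose by 0.29 in clone E3 (adjusted p 0.0275), a call lost without WT replicate 1, 2 or 3 (0.29, 0.28 and 0.29, adjusted p 0.0837, 0.122 and 0.0934), E3 replicate 1 or 2 (0.27 and 0.28, adjusted p 0.0667 and 0.051) or E5 replicate 2 (0.29, adjusted p 0.0572), in a range of 0.00125 to 0.122. The Ctnnb1 and Btrc calls were lost as well at folds about as large: with no filter on low counts (0.28 and 0.31, adjusted p 0.102 and 0.0842), in the fit of WT and E3 alone (0.30 and 0.34, adjusted p 0.0615 and 0.0609) and with the replicate block (0.29 and 0.33, adjusted p 0.0705 and 0.0537). Gsk3b, a kinase of the complex, fell in clone E3 (-0.72, adjusted p 0.0233), where it was at 109, 120 and 61.3 CPM against 159, 159 and 163 CPM in WT. The Gsk3b value was -0.48 without E3 replicate 3 (adjusted p 0.000783), and the call was lost without WT replicate 1, 2 or 3 (-0.73, -0.73 and -0.72, adjusted p 0.0616, 0.0641 and 0.069) and in the fit of WT and E3 alone (-0.72, adjusted p 0.0526), in a range of 0.000783 to 0.069. Btrc, the F-box protein that marks beta-catenin for destruction, rose by 0.33 in clone E3 (adjusted p 0.0211), lost without WT replicate 1, 2 or 3 (0.34, 0.30 and 0.33, adjusted p 0.0578, 0.0999 and 0.0679; range 0.00366 to 0.0999), and in clone E5 its value of 0.21 (adjusted p 0.131) passed without E3 replicate 3 (0.22, adjusted p 0.0193) and in the fit of WT and E5 alone (0.22, adjusted p 0.0122, range 0.0122 to 0.385).

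Of 13 tested nuclear partners of beta-catenin 3 rose and 2 fell in clone E3, beside 15.7% and 14.7% of all tested genes. In clone E5, 2 rose and 3 fell, beside 8.96% and 11.7%, and 5 were lower in E5 than in E3, beside 17.2%. The Groucho co-repressors, which hold TCF factors silent, moved in different directions. Tle1 was at 105, 100 and 97 CPM in WT, 74.4, 62.8 and 68.9 CPM in clone E3 and 54.2, 57.6 and 62.8 CPM in clone E5, below WT in every knockout library. Tle1 had log2 fold changes of -0.55 in clone E3 (adjusted p 0.00217) and -0.79 in clone E5 (adjusted p 0.000299), and Tle3 of -0.63 (adjusted p 0.0025) and -0.83 (adjusted p 0.000625). Tle2 rose by 1.03 in clone E3 (adjusted p 0.00029) and by 0.55 in clone E5 (adjusted p 0.0123), the latter lost without WT replicate 2 (0.49, adjusted p 0.0704), WT replicate 3 (0.54, adjusted p 0.0514) or E5 replicate 1 (0.49, adjusted p 0.0587), in a range of 0.000227 to 0.0704.

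Of 6 tested planar cell polarity genes 1 rose in clone E3 and 1 fell in clone E5. Vangl2, a core protein of that pathway, rose by 0.84 in clone E3 (adjusted p 0.00458), where it was at 5.46, 6.44 and 4.64 CPM against 3.69, 2.73 and 2.79 CPM in WT, and was not called in clone E5 (0.22, adjusted p 0.423). Celsr2, a cadherin of the pathway, had 9, 12 and 6 counts in WT and 2, 0 and 0 in clone E5. The ratio of WT to clone E5 was 13.7, with a 95% counting interval of 3.43 to 119. All E5 counts of Celsr2 lie in replicate 1. Without that library the fitted value in clone E5 went from -3.54 (adjusted p 0.0111) to -6.20 (adjusted p 0.0105).

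Of 4 tested other secreted WNT regulators 1 rose and 1 fell in clone E3, and 1 rose and 2 fell in clone E5. Frzb, a secreted Frizzled-related protein whose symbol the member rule does not hold, was at 8.97, 6.73 and 9.54 CPM in WT, 16.8, 11.4 and 16.2 CPM in clone E3 and 1.21, 1.43 and 1.31 CPM in clone E5. The lines did not overlap, and WT lay between the clones as it did for Fzd1 and Tcf7. Frzb rose by 0.82 in clone E3 (adjusted p 0.00617), had a log2 fold change of -2.67 in clone E5 (adjusted p 9.12e-06) and differed by -3.49 between the clones (adjusted p 8.95e-07). Tmem88, an inhibitor that binds Dishevelled, had 21, 25 and 32 counts in WT, 3, 6 and 10 in clone E3 and 1, 2 and 8 in clone E5. Tmem88 fell in clone E5 (-2.82, adjusted p 0.00493) and in clone E3 (-1.99, adjusted p 0.013), the latter lost without WT replicate 3 (-1.81, adjusted p 0.0555, range 0.00323 to 0.0555). Without E3 replicate 3 the Tmem88 value in clone E3 was -2.51 (adjusted p 0.00323). In clone E5 the Tmem88 value ranged from -3.95 to -2.42 over the alternatives, and 15 of 15 called it. Apcdd1, a membrane inhibitor of WNT signalling, rose by 0.61 in clone E5 (adjusted p 0.00119), and its value of 0.22 in clone E3 (adjusted p 0.0992) passed without E3 replicate 3 (0.28, adjusted p 0.0078) and under upper-quartile scaling (0.30, adjusted p 0.025, range 0.0078 to 0.268).

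Of 9 tested target genes of beta-catenin 2 rose and 1 fell in clone E3, beside 15.7% and 14.7% of all tested genes. Among the same 9, 3 rose in clone E5 and 5 were higher in E5 than in E3, beside 8.96% and 14.7%. None fell in clone E5 by edgeR (0 of 9, with 1 at an unadjusted p under 0.05, 0 by DESeq2 and 1, Ccnd1, without E3 replicate 3 or in the fit of WT and E5 alone). Axin2, which fell in clone E5, is a member and not in this list. Notum, Znrf3 and Apcdd1 stand both here and in lists given above, so 2 of the 3 genes that rose in clone E5 and 3 of the 5 higher in E5 than in E3 are counted there too. Bambi, 1 of the 2 that rose in clone E3 (1.86, adjusted p 0.0354), had 3, 4 and 2 counts in WT and 11, 7 and 15 in clone E3, and passed in 7 of 14 alternatives (adjusted p from 0.024 to 0.121). That call was lost without WT replicate 1, 2 or 3, E3 replicate 1 or 3 or E5 replicate 3, and with the replicate block. Myc, a growth regulator, was at 540, 638 and 646 CPM in WT, 230, 182 and 239 CPM in clone E3 and 658, 721 and 671 CPM in clone E5. Clone E3 lay below the other lines, and clone E5 just above WT. Myc fell in clone E3 (-1.48, adjusted p 3.01e-05), was not called in clone E5 (0.17, adjusted p 0.383) and was higher in E5 than in E3 (1.65, adjusted p 7.07e-06). Ephb3, an ephrin receptor, rose by 0.48 in clone E3 (adjusted p 0.00222) and by 0.32 in clone E5 (adjusted p 0.0245), the latter lost without WT replicate 1, 2 or 3 (0.34, 0.29 and 0.32, adjusted p 0.0652, 0.125 and 0.0906) or E5 replicate 1, 2 or 3 (0.31, 0.31 and 0.34, adjusted p 0.0852, 0.0984 and 0.0538), with no filter on low counts (0.31, adjusted p 0.131) and with the replicate block (0.32, adjusted p 0.0692), in a range of 0.00268 to 0.131. Axin2, Notum and Myc, which are all counted as targets of beta-catenin, did not share 1 pattern over the lines: Axin2 was lowest in clone E5, Notum highest in clone E5 and Myc lowest in clone E3.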

How the data were processed

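RNA-seq libraries of 3 LLC lines with 3 biological replicates each were compared. The authors deposited raw counts per gene; their tools were FastQC for read quality, Trimmomatic for trimming, STAR for alignment on GRCm39 and DESeq2 for comparisons. The library kit was a directional one, and the counting tool, its strand setting and the annotation release were not given in the sources used here. The members and lists were chosen with earlier results of these data known. Samples were grouped by the line in their titles.

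Counts were fitted with edgeR 4.0.16 (R 4.3.3, limma 3.58.1), by its two-sided quasi-likelihood test on TMM-scaled counts. The filter filterByExpr (minimum count 10, minimum total 15) kept 14593 genes. All 9 libraries entered 1 fit, from which each clone was tested against WT and the clones against each other. P-values were adjusted by Benjamini-Hochberg over all genes tested. An adjusted p under 0.05 was a call, and a DEG also had an absolute log2 fold change above 1. A standard error (SE) is the size of the log2 fold change divided by the square root of its F statistic. On simulated data the test recovered most of the changes put in, missed some and made false calls, in the comparison of clone E3 with WT at a share of its calls above the threshold.

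Levels per length are CPM per kb of the canonical transcript in GENCODE M39, which held 50267 of the 50813 gene identifiers. The chromosome, start and end were the same for 28225 rows, and for 15 of the 53 members. Lengths and promoter windows may therefore differ from the gene models that were counted. Levels and shares per length, and their order, depend on the use of the canonical transcript. Promoter windows came from the GRCm39 genome. Counting intervals are exact 95% binomial intervals and, like the floor of 3 counts, cover counting error only. Figures were drawn with matplotlib 3.10.9 in Python 3.11.15.

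Values in every library are given for Cd47 and for members with a mean of at least 1 CPM in a line and a call in a comparison. Lrp6, which had no call, is also given in every library. Other members at 1 CPM or more without a call are given by range, and lower ones in groups, with values where they were DEGs. From each pathway list at most 3 genes were chosen for description, first those called in both clones by the larger p, then those with the smallest p against WT. Some others are named where they bear on the counts or alternatives of a list. Counts of Wnt10a and Wnt3 were given after their values were seen. Tiki1 and Tiki2 matched no symbol, and 375 genes in the table share a symbol with another.

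The alternatives were DESeq2 1.42.0, DESeq2's size factors, upper-quartile scaling, no filter, a minimum of 10 counts in each library, a fit of just the 2 lines compared, the replicate number as a block, and each library left out in turn.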

Additional observations from a re-analysis of the deposited data

Results flagged for a closer look

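For 10 members the clones differed from each other when E5 was tested directly against E3 by edgeR's quasi-likelihood test, so that the effect of a knockout clone against WT was not the same in both. Of the 21 tested members 2 were higher and 8 lower in E5, where 14.7% and 17.2% of all tested genes were. The log2 differences, E5 over E3, were -5.57 for Fzd1, -2.24 for Axin2, -1.58 for Tcf7, -1.37 for Fzd6, -1.13 for Wnt5a, -0.53 for Lgr6, -0.43 for Lrp5 and -0.34 for Dkk2. They were 2.56 for Wnt5b and 4.13 for Lef1. The calls of Lgr6, Lrp5 and Dkk2 were each lost under several of the alternatives. The Lef1 value is a fitted one that rests on 2 counts in clone E3, depends on the prior count of the fit, and was 6.81 without E3 replicate 2, which holds both counts. The Fzd1 value rests on 3, 1 and 4 counts in clone E5, and lay between -5.88 and -5.23 with 1 library left out. Fzd1 and Tcf7 were called on opposite sides of WT in the clones. The Tcf7 call in clone E3 was kept in 10 of 16 alternatives (adjusted p from 0.0102 to 0.126). The part of CD47 in these differences was not tested, since both clones are knockouts.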

How the results depend on the processing

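The 63 log2 fold changes of tested members were recomputed under each alternative. Of the 992 values so obtained 922 kept their direction and their side of the threshold, 39 lost a call, 20 gained a call and 11 changed sign. The count of members called ranged from 10 to 16 in clone E3, from 9 to 16 in clone E5 and from 6 to 13 between the clones. These counts are over different numbers of tested members. With all libraries they were 21 under the default filter, 16 with at least 10 counts in every library and 41 with no filter on low counts. They were 20 or 21 in the fits of just the 2 lines compared, and 21 to 23 with 1 library left out. The share of all tested genes called moved as well, from 16.7% to 43.2% in clone E3, from 11.4% to 46.8% in clone E5 and from 18.1% to 44.1% between the clones. The count of 6, against 10, came with at least 10 counts in every library, a filter that leaves Axin2, Fzd1, Lef1 and Wnt5b untested by construction. DESeq2 called 13, 13 and 10 members, and 34.2%, 25.2% and 35.8% of all tested genes.

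With the replicate block the members called were 13 in clone E3, 12 in clone E5 and 8 between the clones, where Lgr6 and Lrp5 were lost. That fit called 25.1%, 15.8% and 26.6% of all tested genes, against 30.5%, 20.6% and 31.9% without the block. Same-number correlations of the deviations from the line means lay between -0.29 and 0.12, and different-number ones between -0.3 and 0.29. With 3 libraries a line the deviations are tied to each other. These correlations therefore cannot decide whether the replicate numbers pair the libraries.

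The values that changed sign were never called. Between the clones, Wnt10b was at -0.0853 with upper-quartile scaling, -0.0146 with at least 10 counts in every library and -0.0252 to 0.0533 with 1 library left out. Fzd8 between the clones was at -0.0588 with upper-quartile scaling, and Fzd4 at -0.143 to 0.434 with 1 library left out. In clone E3 against WT, leaving out 1 library gave -0.589 to 0.00855 for Lrp6, -0.073 to 0.188 for Fzd5 and -0.452 to 0.0871 for Lgr4. For Lrp6 and Lgr4 the sign changed without E3 replicate 3, and for Fzd5 without E3 replicate 1. The cause was not tested. The scaling moved the median of all genes by at most 0.09 on the log2 scale.

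Members that the low-count filter removed were not tested, and a count of 0 is not absence, since low RNA levels can go uncounted. The knockout is represented by 2 clones and the wild type by 1 line. A fit without a library has 2 in that line, and its spread is shared over the lines. In clone E3 the SD between replicates was 40.4 CPM for Lrp6 and 32.3 CPM for Lrp5.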
